A study of Mus musculus with 6 samples.

Results

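The genes described here are 43 cell cycle genes of the mouse retina, 18 that act at or around S phase, when DNA is copied, and 25 that act in mitosis or prepare it. They were taken by symbol from a list written for this comparison, and all 43 were found among the 28627 genes of the deposited table. It was written with earlier results of these data known. All 43 also passed the filter on low read numbers, among 16681 genes tested.

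The 6 libraries were poly-A RNA of retinas from postnatal day 15 pups in the oxygen-induced retinopathy model, 3 from Emcn+/+ pups and 3 from Emcn-/- littermates. Every group had the retinopathy treatment, so no untreated retina stands beside them. In this model, high oxygen makes retinal capillaries regress in the young pup, and the return to room air leaves a hypoxic retina in which vessel cells divide and sprout. Emcn codes for endomucin, a mucin-like glycoprotein on endothelial cells. The labels give no strain, no further allele, no sex and no statement that each sample is 1 animal, so p-values here reflect sample-to-sample spread, which may be technical. Libraries held 14865868 to 17087621 assigned reads. Values are normalised reads, which are read counts divided by 1 factor per library, so that 1 read is worth 0.924 to 1.09 normalised reads. As a check of the labels, Emcn had 80.6 to 100.5 normalised reads where it was intact and 1.04 to 4.62 where it was deleted. The 8 rod photoreceptor markers summed to 716686 to 833766 normalised reads, so the tissue carried its defining markers. Emcn+/+ replicate 3 stood apart. It had interferon genes at 8296 normalised reads in sum against 1598 to 1854 elsewhere, and it was the 1 library with Xist reads of a female. Emcn+/+ replicate 1 had lens genes at 37911 normalised reads in sum against 32.8 to 167 elsewhere. Results are therefore also given without replicate 3.

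A dividing cell loads the Mcm2 to Mcm7 helicase onto DNA, fires it with Cdc45 and the GINS complex, and copies DNA with the clamp Pcna. It then builds a spindle under Cdk1 with cyclins A and B, the Aurora kinases and Plk1. Genes of the first step are switched on mainly by E2F factors. Genes of mitosis are switched on later, by the MuvB complex with Mybl2 and Foxm1, often through promoters that hold a CCAAT box and a cell cycle homology region, the CHR element. In the mouse retina most neurons and Müller glia have left the cycle by the second week, and cells still dividing in this model are chiefly endothelial cells, pericytes, astrocytes and microglia. In whole retina RNA, fewer dividing cells and less RNA per cell cannot be told apart.

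Promoters of the 2 groups differed in how often they held the letters of these elements. RefSeq windows (GRCm38.p6, 250 bases before to 50 after a start site) existed for 35 of the 43 members. Mcm4, Gins2, Ccne2, Ccna2, Aurkb, Kif20a, Tpx2 and Foxm1 had none. Windows were searched on both strands for CCAAT, for the CHR element TTTGAA and for 4 forms of the E2F element, TTTCCCGC, TTTCGCGC, TTTGGCGC and TTTGCCGC. The E2F forms can overlap each other. An E2F form lay in a window of 6 of 15 S phase genes (40.0%) and of 1 of 20 mitosis genes (5.0%), against 2.6% of all 27025 genes with a window. TTTGAA lay in a window of 14 of 20 mitosis genes (70.0%) and 2 of 15 S phase genes (13.3%), against 20.2% of all. CCAAT was found for 17 mitosis genes (85.0%) and 10 S phase genes (66.7%), against 41.1% of all. All 14 mitosis genes with TTTGAA also had CCAAT. A match is only a run of letters, not a shown binding site.

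The stretches below end at the base before the start site and show what the capitals mark, the matches on either strand (ATTGG and TTCAAA are CCAAT and TTTGAA read on the other strand). The first 4 are mitosis genes. Cdc20, Kif11 and Ube2c carry CCAAT with TTTGAA, and Cdk1 carries these and an E2F form. Mcm6 and Mcm5 are S phase genes with overlapping E2F forms beside CCAAT. Rrm1 is shown because its values did not overlap between the genotypes, and its stretch holds CCAAT without an E2F form.
Cdc20 (chr4:118437344-118437413, minus strand): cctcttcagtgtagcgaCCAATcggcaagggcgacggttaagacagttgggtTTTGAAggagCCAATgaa
Cdk1 (chr10:69352913-69353052, minus strand): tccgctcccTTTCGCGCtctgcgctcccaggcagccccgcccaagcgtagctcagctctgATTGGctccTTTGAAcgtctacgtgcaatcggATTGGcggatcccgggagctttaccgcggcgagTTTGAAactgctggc
Kif11 (chr19:37376322-37376381, plus strand): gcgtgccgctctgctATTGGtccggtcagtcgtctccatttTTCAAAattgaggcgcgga
Ube2c (chr2:164769834-164769928, plus strand): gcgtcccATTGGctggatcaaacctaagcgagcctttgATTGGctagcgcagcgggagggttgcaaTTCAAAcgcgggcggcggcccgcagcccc
Mcm6 (chr1:128359706-128359825, minus strand): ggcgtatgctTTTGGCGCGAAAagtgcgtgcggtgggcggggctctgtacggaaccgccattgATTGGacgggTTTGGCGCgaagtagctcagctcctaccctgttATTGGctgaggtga
Mcm5 (chr8:75109349-75109508, plus strand): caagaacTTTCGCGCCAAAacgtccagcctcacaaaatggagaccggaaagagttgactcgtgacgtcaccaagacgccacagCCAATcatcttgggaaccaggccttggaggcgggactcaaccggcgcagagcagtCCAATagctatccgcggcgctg
Rrm1 (chr7:102441595-102441694, plus strand): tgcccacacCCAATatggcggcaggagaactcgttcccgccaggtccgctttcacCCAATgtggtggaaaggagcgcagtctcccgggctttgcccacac

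Per length, cell cycle transcripts were scarce in this retina. Divided by exonic length, the S phase genes had a median level of 19.6 and the mitosis genes of 6.91 normalised reads per kb, against 75.3 for all tested genes with a length. Pcna, the replication clamp, was the 1 member above that median, at 282 normalised reads per kb. Mcm4 (74.6), Bub1b (67.4), Mcm7 (60.5), Rrm1 (49.4), Ccna2 (45.5) and Ccne2 (41.1) followed on the same scale. At the other end stood Kif23 (2.15) and Cenpf (1.83). Partners in 1 process differed widely. The checkpoint gene Bub1b lay 27.3 times above its relative Bub1 per kb, and cyclin A2 lay 16.8 times above cyclin B1. The large subunit of ribonucleotide reductase (Rrm1) lay 5.56 times above the small subunit (Rrm2). Exonic length merges the exons of all annotated transcripts of a gene, 11012 bases for Rrm1 and 2771 for Rrm2. Levels per kb and their ratios therefore depend on the annotation. Pcna, Ccnb1, Ccnb2 and Tyms have annotated pseudogenes that could share their reads.

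**Figure D1:**
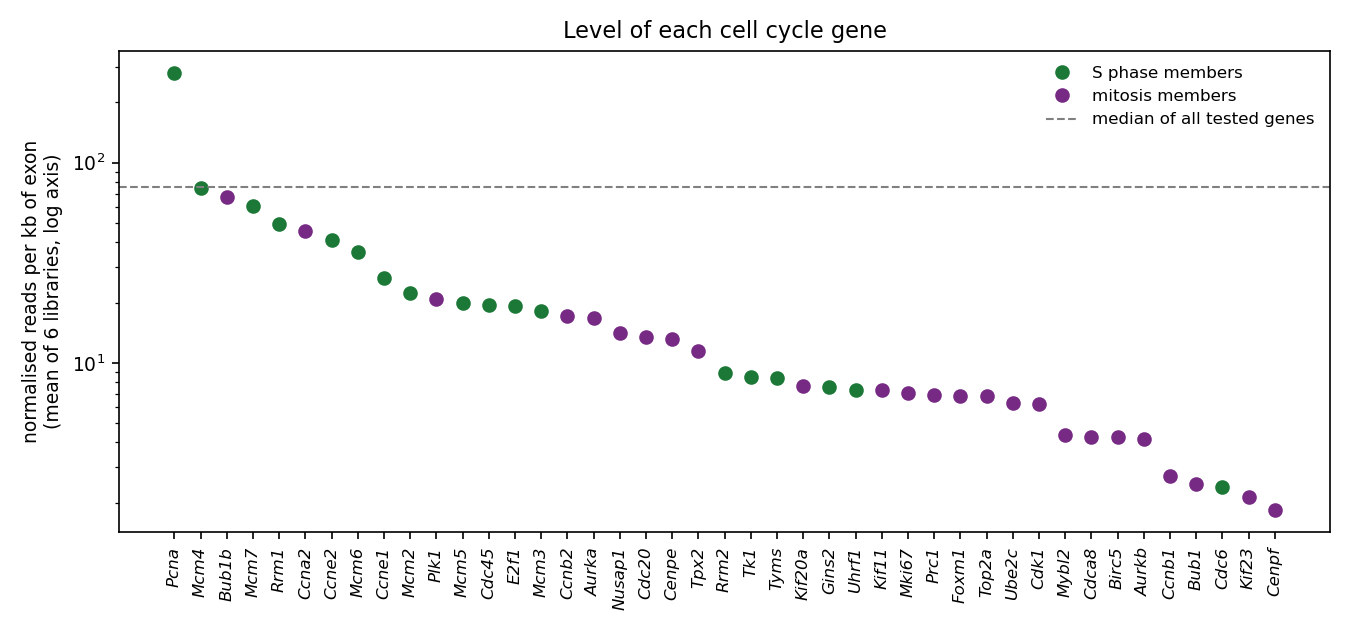
Each point is 1 of the 43 genes, placed by its mean of the 6 libraries in normalised reads per kb of exon on a log axis, green for S phase and purple for mitosis. Only Pcna lies above the dashed median of all tested genes, and most mitosis genes lie in the lower part.

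The comparison asked whether Emcn-/- retinas differed from Emcn+/+ retinas in these genes. No member passed. Of the 18 S phase genes, 0 rose and 0 fell at a limma adjusted p under 0.05, and of the 25 mitosis genes also 0 rose and 0 fell, where 0.00599% of all tested genes were called, Emcn alone. The smallest adjusted p among members was 0.561 with limma and 0.543 with an edgeR quasi-likelihood fit of the reads, both for Tk1. DESeq2 also called none, but it gave an adjusted p to just 2 of the 43, because it leaves weakly expressed genes out of its adjustment. DESeq2 called 1.18% of the genes to which it gave an adjusted p. At an unadjusted p under 0.05, limma had 1 member, Tk1, which was lower. This 2.33% of members stands beside 8.14% of all tested genes, 3.67% higher and 4.47% lower. edgeR also had Tk1 alone, beside 8.34% of all tested genes, and DESeq2 had 0 members.

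The log2 fold changes of Emcn-/- over Emcn+/+, on the log2(normalised reads + 1) scale, were centred near 0 in both groups. They were positive for 9 S phase genes and negative for 9, with a median of 0.02. For mitosis genes 11 were positive and 14 negative, with a median of -0.04. Over all tested genes the median was 0.01 and 52.0% were positive. Summed over the S phase genes, Emcn+/+ libraries had 2655, 2532 and 2962 normalised reads and Emcn-/- libraries 2806, 2745 and 2881. Summed over the mitosis genes, they had 1319, 1278 and 1436 against 1307, 1191 and 1499.9. Both sums overlapped between the genotypes. Members ranged from -0.52 for Tk1 to 0.55 for Cdc20.

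The absence of calls does not show equal levels, and the precision differed between the groups. The standard error of a log2 fold change ranged from 0.07 to 0.55 over members. For 11 of 18 S phase genes the 95% interval lay within a 1.5-fold change either way, but for only 5 of 25 mitosis genes. Within a 2-fold change either way lay 15 of 18 and 14 of 25. The widest intervals were those of genes with few reads or a large spread, such as Ube2c (-1.06 to 1.46), Bub1 (-0.81 to 1.46) and Uhrf1 (-0.72 to 1.64). A change of more than 2-fold in either direction was not excluded for Ube2c, and a rise of more than 2-fold was not excluded for Bub1 and Uhrf1.

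**Figure D2:**
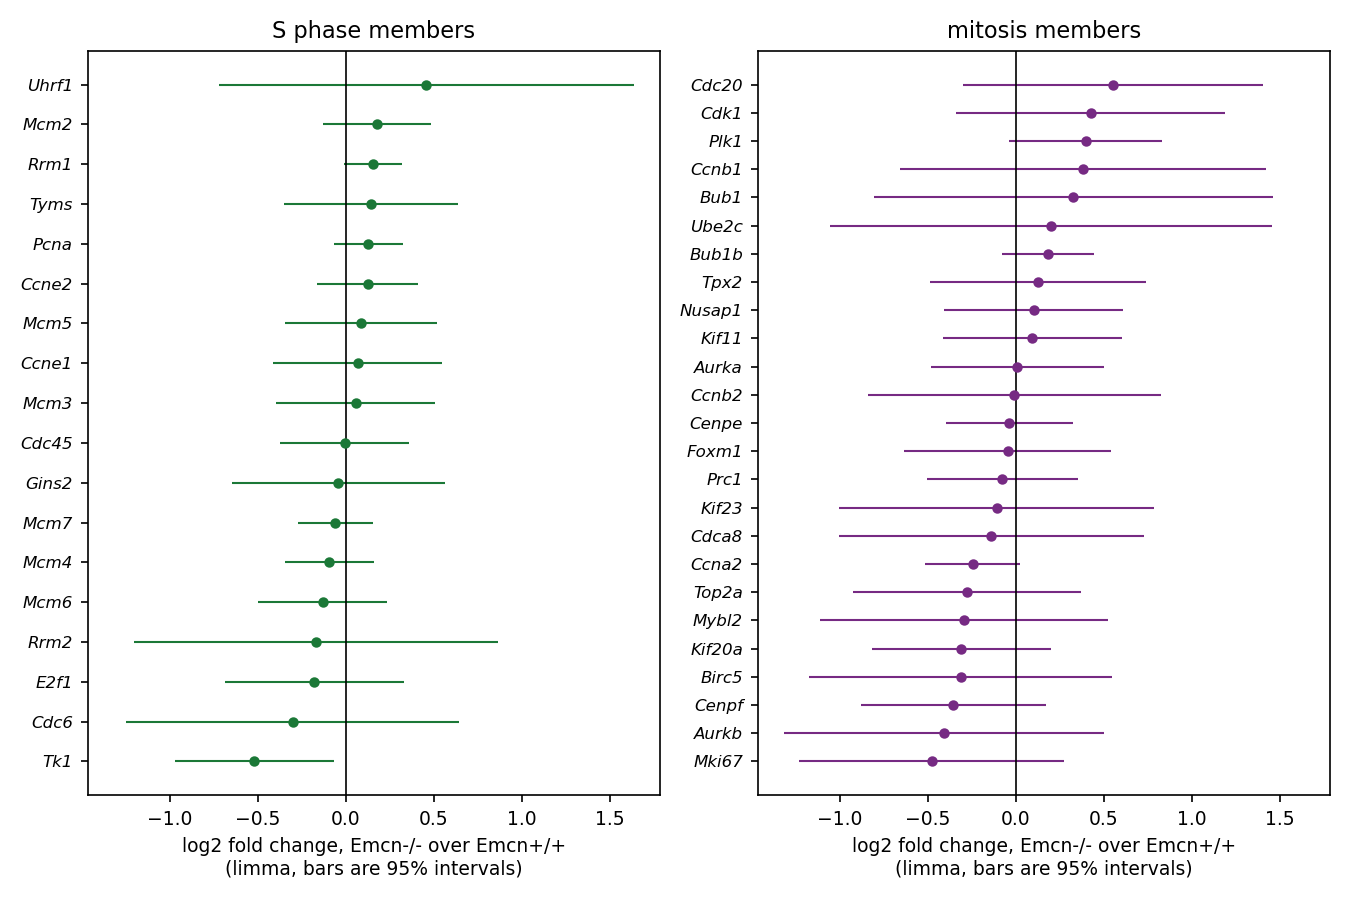
Points are log2 fold changes of Emcn-/- over Emcn+/+ from limma, with S phase genes on the left, mitosis genes on the right and bars as 95% intervals. Most S phase bars are shorter, and Tk1 is the 1 gene whose bar does not reach 0.

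The values of the 3 Emcn-/- and 3 Emcn+/+ libraries did not overlap for 6 of the 43 genes, 2 higher in Emcn-/- and 4 lower. The same was true of 14.4% of all tested genes, 7.48% higher and 6.94% lower, so the members' share was near the background. Rrm1 and Plk1 were the higher ones. Tk1, Ccna2, Cenpf and Kif20a were the lower ones.

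Of the S phase genes, Tk1 had the smallest p. It codes for cytosolic thymidine kinase, which salvages thymidine for DNA synthesis (GRCm38 chromosome 11, 117815526 to 117826092, minus strand). Its Emcn+/+ libraries had 55.0, 54.7 and 47.0 normalised reads and its Emcn-/- libraries 32.1, 38.4 and 37.9. Each Emcn-/- library was below each Emcn+/+ library. The log2 fold change was -0.52 ± 0.20 (SE, limma unadjusted p = 0.0289, adjusted p = 0.561), with means of 52.2 ± 4.54 and 36.1 ± 3.47 (SD over 3 libraries). These rest on 155 and 111 reads in all.

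Other genes of deoxynucleotide supply had values of either sign. Rrm1, the large subunit of ribonucleotide reductase, on chromosome 7 (102441695 to 102469771, plus strand), had 504, 490.3 and 550.4 normalised reads in Emcn+/+ and 554, 576 and 588 in Emcn-/-. The lowest Emcn-/- library was just above the highest Emcn+/+ library, and the log2 fold change was 0.15 ± 0.07 (SE, limma adjusted p = 0.633). Rrm2, its S phase partner subunit, is given by library although the naming rule did not ask for it, since it spread most among Emcn-/- libraries. It had 25.9, 26.9 and 19.7 normalised reads in Emcn+/+ and 13.6, 14.5 and 47.1 in Emcn-/-. One of the Emcn-/- libraries was the highest of all and the other two were the lowest. Tyms, thymidylate synthase, had a log2 fold change of 0.14 ± 0.22 (SE).

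None of the helicase genes passed. Mcm7, the member of this role with the most reads, had 272, 275 and 273 normalised reads in Emcn+/+ and 266, 242 and 280.0 in Emcn-/-. The groups overlapped, with a log2 fold change of -0.06 ± 0.09 (SE, limma adjusted p = 0.882). Other genes share 12.6% of the exonic bases of Mcm7. Mcm2 (0.18), Mcm3 (0.06), Mcm4 (-0.09), Mcm5 (0.09) and Mcm6 (-0.13) also had small log2 fold changes of either sign. Cdc45, which activates the helicase, had -0.01 and the loader Cdc6 had -0.30, with an SE of 0.42 at 40 and 36 reads in all. Gins2 (-0.04) is uncertain, because 67.3% of its exonic bases overlap exons of Gse1 on the other strand, and Gse1 had 2035 normalised reads in Emcn+/+.

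Pcna had 617, 594 and 732 normalised reads in Emcn+/+ and 709, 695 and 711 in Emcn-/-. Emcn+/+ replicate 3 was the highest of all, above every Emcn-/- library, and the log2 fold change was 0.13 ± 0.09 (SE, limma adjusted p = 0.712). Uhrf1, which keeps DNA methylation through replication, is given by library for the same reason as Rrm2, its spread. It had 14.5, 14.8 and 56.8 normalised reads in Emcn+/+ and 33.1, 21.8 and 46.2 in Emcn-/-. Its Emcn+/+ libraries thus held both the lowest values and the highest. Without Emcn+/+ replicate 3 its log2 fold change moved from 0.46 to 1.08 (limma unadjusted p = 0.0138, adjusted p = 0.173).

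Among regulators of S phase entry, the cyclin gene Ccne2 had 151, 129.8 and 131 normalised reads in Emcn+/+ and 153, 157 and 139.5 in Emcn-/-, with overlap and a log2 fold change of 0.12 ± 0.13 (SE). It shares 17.4% of its exonic bases with Ints8 on the other strand. Its relative Ccne1 had 0.07 ± 0.21. E2f1, the transcription factor that opens S phase, had -0.18 ± 0.22.

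**Figure D3:**
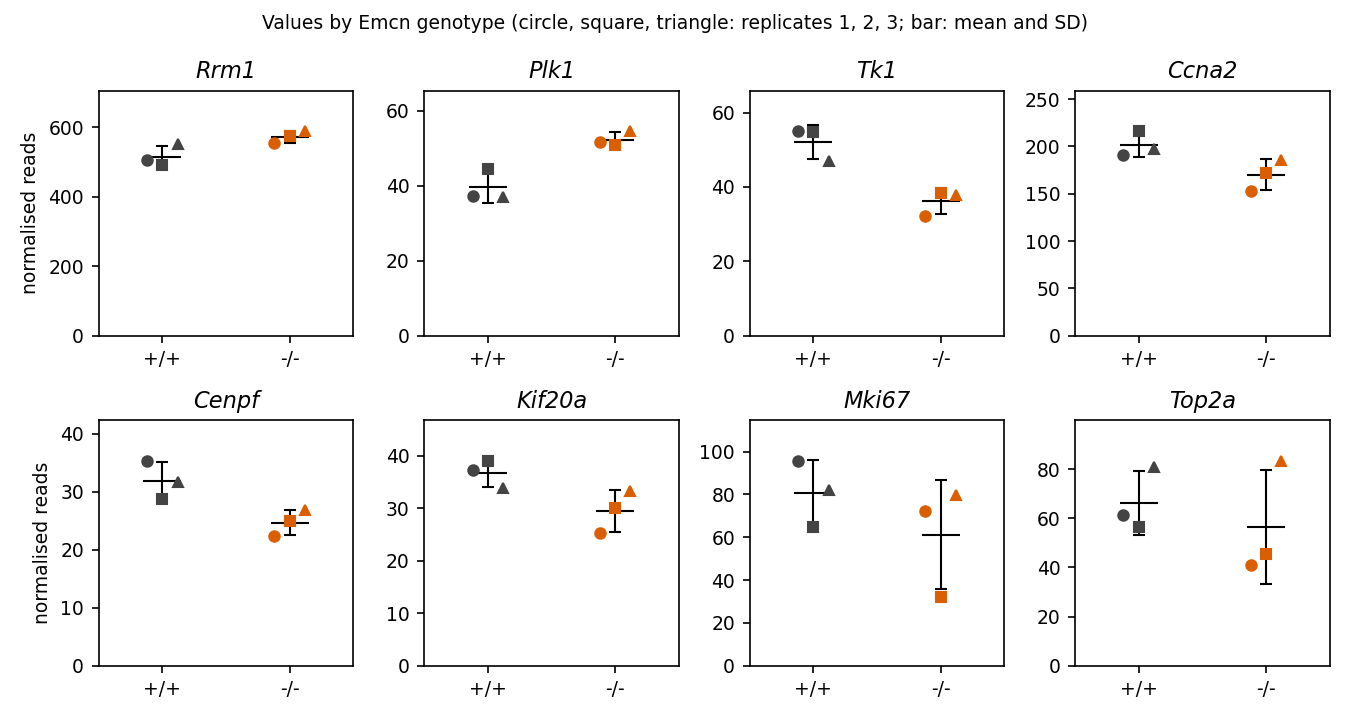
Normalised reads of 8 genes by Emcn genotype, with a mark for each replicate and a bar for mean and SD, each axis starting at 0. The first 6 genes have no overlap between genotypes, while Mki67 and Top2a, markers of dividing cells, overlap.

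Of the mitotic cyclins and Cdk1, Ccna2 was lower in each Emcn-/- library. Cyclin A2 drives S phase and entry into mitosis (chromosome 3, 36564865 to 36572150, minus strand). It had 191, 216 and 198 normalised reads in Emcn+/+ and 153, 172 and 186 in Emcn-/-, with a narrow gap between the groups. The log2 fold change was -0.24 ± 0.12 (SE, limma adjusted p = 0.642). Exosc9 on the other strand covers 12.5% of its exonic bases, and it had a log2 fold change of 0.06. Cdk1 had 0.43 ± 0.34, Ccnb1 0.38 ± 0.46 and Ccnb2 -0.01 ± 0.37 (SE).

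Plk1, a kinase that drives centrosome maturation and cytokinesis, was the 1 mitosis gene higher in each Emcn-/- library (chromosome 7, 122159439 to 122169873, plus strand). It had 37.3, 44.5 and 37.1 normalised reads in Emcn+/+ and 51.6, 50.8 and 54.5 in Emcn-/-. The log2 fold change was 0.40 ± 0.19 (SE, limma adjusted p = 0.640). Bub1b, a spindle checkpoint protein, had 249, 302 and 259 normalised reads in Emcn+/+ and 327, 322 and 271 in Emcn-/-, and the groups overlapped (0.18 ± 0.12 SE). Its relative Bub1 had 0.33 ± 0.50, Aurka 0.01 ± 0.22 and Aurkb -0.41 ± 0.40.

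Partners of Aurora B in the chromosomal passenger complex overlapped too. Cdca8 (borealin) had 29.0, 13.0 and 28.4 normalised reads in Emcn+/+ and 20.4, 14.5 and 26.8 in Emcn-/- (log2 fold change -0.14 ± 0.38 SE). Birc5 (survivin) had -0.31 ± 0.38. Of the genes that work with the anaphase-promoting complex, Cdc20, its activator, had 25.9, 13.9 and 19.7 normalised reads in Emcn+/+ and 31.2, 17.6 and 42.5 in Emcn-/-. Its log2 fold change was the highest of all members and did not pass (0.55 ± 0.38 SE, limma adjusted p = 0.716). Its ubiquitin-conjugating partner Ube2c had 0.20 ± 0.55, and 22.8% of the exonic bases of Ube2c overlap Tnnc2 on the other strand.

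Spindle genes had small differences of either sign. Nusap1, a microtubule bundler and the one of this role with the most reads, had 45.6, 62.1 and 56.8 normalised reads in Emcn+/+ and 58.4, 46.7 and 73.0 in Emcn-/- (log2 fold change 0.10 ± 0.22 SE). Kif20a, a kinesin of cytokinesis, had 37.3, 38.9 and 33.9 against 25.3, 30.1 and 33.3 normalised reads, without overlap but with a gap of under 1 normalised read. Its log2 fold change was -0.31 ± 0.22 (SE, limma adjusted p = 0.727), and 29.3% of its exonic bases overlap Cdc23 on the other strand, which had 1074 normalised reads in Emcn+/+. Kif11 (0.09), Kif23 (-0.11), Prc1 (-0.08) and Tpx2 (0.12) were closer to 0 on the log2 scale. Prc1 shares 11.1% of its exonic bases with Rccd1 on the other strand.

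The kinetochore gene Cenpf was lower in each Emcn-/- library (chromosome 1, 189640606 to 189688086, minus strand). It had 35.3, 28.7 and 31.7 normalised reads in Emcn+/+ and 22.4, 24.9 and 26.8 in Emcn-/-, with a log2 fold change of -0.35 ± 0.23 (SE, limma adjusted p = 0.709). Cenpe, a kinetochore motor, had 102, 111 and 133 against 104, 105 and 128 normalised reads, and the groups overlapped (-0.04 ± 0.16 SE).

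Mki67, which codes for the proliferation marker Ki-67, had 95.4, 64.9 and 81.9 normalised reads in Emcn+/+ and 72.1, 32.2 and 79.5 in Emcn-/-. Emcn-/- replicate 2 was the lowest, and the other two Emcn-/- values lay within the Emcn+/+ range. The log2 fold change was -0.48 ± 0.33 (SE, limma adjusted p = 0.718), the lowest of the mitosis genes. Top2a, the topoisomerase that untangles mitotic chromosomes, was added by library after its values were seen, as the companion of Mki67. It had 61.2, 56.5 and 80.8 against 40.9, 45.6 and 83.2 normalised reads, so 2 Emcn-/- libraries were the lowest and 1 the highest (-0.28 ± 0.29 SE). The transcription factor gene Foxm1 had 43.6, 38.9 and 36.0 against 36.0, 29.0 and 52.7 (-0.05 ± 0.26 SE), and Mybl2 had a log2 fold change of -0.29 ± 0.36.

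The libraries with the highest member values came from both genotypes. For 31 of the 43 genes the highest value was in a library labelled replicate 3 here, 15 in that of Emcn+/+ and 16 in that of Emcn-/-. These are the 2 samples whose titles are numbers in the 180s, while the other 4 have numbers in the 140s, and the labels do not say what the numbers stand for. Over all tested genes, these libraries also had the highest positions on the axis of greatest variation (31.8% of the variance). Emcn+/+ replicate 3 lay at 38.3 on it, and Emcn+/+ replicates 1 and 2 at -26.2 and -17.7. All Emcn-/- libraries lay between, replicate 3 at 13.2 and replicates 1 and 2 at -3.39 and -4.26. The axis was thus no clean split by title number. The median deviation of the mitosis genes from their own 6-library mean was 0.23 and 0.25 (log2) in those libraries. It was 0.06 and -0.15 in Emcn+/+ replicates 1 and 2, and -0.04 and -0.17 in Emcn-/- replicates 1 and 2. The S phase genes had the same libraries on top, with medians of 0.12 and 0.08, in a narrower range whose lowest value was -0.11 in Emcn+/+ replicate 2. In Emcn-/- replicate 2, 3 of 25 mitosis genes lay above their own mean, against 23 of 25 in Emcn-/- replicate 3. Neither this count nor that of the highest values was made over all tested genes. They are therefore not known to be particular to the members.

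Within the title numbers of the 140s, 2 libraries against 2, the median log2 difference was 0.10 for S phase genes and -0.12 for mitosis genes. Between the 2 libraries of the 180s it was -0.02 and 0.01. The sign differed between these comparisons for 23 of the 43 genes. With the title number series as a term in limma, 0 members passed. Both genotypes have the same number of libraries in each series, so this term cannot move the log2 fold changes or their medians. It changed the p-values only. In that fit 2 members had a limma unadjusted p under 0.05, Rrm1 higher and Tk1 lower. That is 4.65% of members beside 12.5% of all tested genes.

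**Figure D4:**
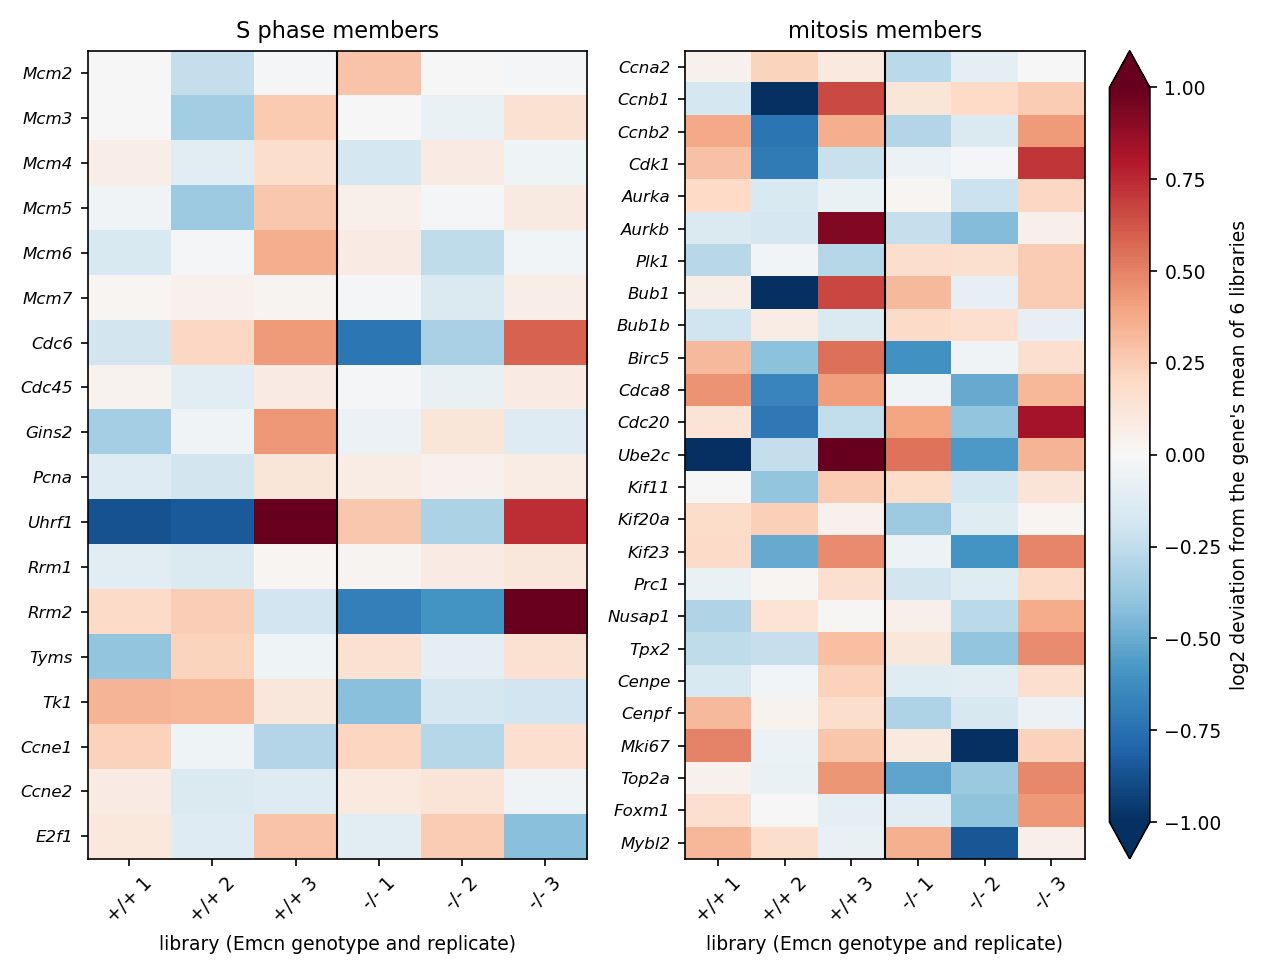
Colours give the log2 deviation of each gene (rows) in each library (columns) from its own mean of the 6 libraries, S phase genes left and mitosis genes right, with a line between genotypes. The columns of replicate 3 of both genotypes are the reddest, and that of Emcn-/- replicate 2 is mostly blue among mitosis genes.

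Leaving out Emcn+/+ replicate 3 made no member pass, while 0.905% of all tested genes were then called, and the members' smallest limma adjusted p was 0.153. Without it 4 members had an unadjusted p under 0.05, Pcna, Uhrf1 and Rrm1 higher and Tk1 lower. That is 9.30% of members beside 17.0% of all tested genes in the same fit. The medians were then 0.06 for S phase and 0.07 for mitosis genes, so the mitosis median changed sign. Without Emcn-/- replicate 2 it was 0.12, and without Emcn-/- replicate 3 it was -0.19. In limma without Emcn-/- replicate 3, Tk1, Ccna2 and Top2a had an unadjusted p under 0.05, all lower. These 3 are 6.98% of members beside 5.76% of all tested genes. Without Emcn-/- replicate 2 there were 2, Cdc20 higher and Tk1 lower, 4.65% beside 5.46%. There were 0 without Emcn+/+ replicate 1 or 2 or Emcn-/- replicate 1. Without Emcn-/- replicate 3 the genotypes did not overlap for 16 of 43 genes, 5 higher and 11 lower (37.2%, against 23.1% of all tested genes). This share was 20.9% against 23.1% without Emcn+/+ replicate 1, 23.3% against 21.0% without Emcn+/+ replicate 2 and 23.3% against 35.9% without Emcn+/+ replicate 3. Without Emcn-/- replicate 2 it was 16.3% against 22.8%, and without Emcn-/- replicate 1 there were 6 genes, beside 24.1% of all.

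Marker genes of cells that may divide moved with some of these libraries, and their part in the member values was not tested. Emcn-/- replicate 2, low in mitosis genes, was also lowest in endothelial markers, with a summed level of 4029 normalised reads. Emcn-/- replicates 1 and 3 had 5865 and 6150, and Emcn+/+ libraries 5945 to 6368. Of the 10 endothelial markers, 8 had negative log2 fold changes and 0 passed. The smallest p was that of Kdr (-0.26 ± 0.08 SE, limma adjusted p = 0.499), a large part of each sum. It had 3164, 3030 and 3025 normalised reads in Emcn+/+ and 2743, 2250 and 2753 in Emcn-/-. By the median deviation of the list, Emcn-/- replicates 1 and 3 (0.16 and 0.22, log2) were not low beside Emcn+/+ libraries (0.02 to 0.17). Pericyte markers also had their lowest sum in Emcn-/- replicate 2, 3344 normalised reads. Emcn-/- replicates 1 and 3 had 5302 and 5723, above the Emcn+/+ libraries at 4464 to 4734. Most of each sum was Rgs5, at 2641 to 4512. Of the 8 pericyte markers, 6 had negative log2 fold changes and 0 passed. All 10 endothelial and 8 pericyte markers had reads in every library. Emcn+/+ replicate 2 was nearly as low in mitosis genes as Emcn-/- replicate 2, with median deviations of -0.15 and -0.17 (log2). In Emcn+/+ replicate 2 the endothelial and pericyte markers were not low, with median deviations of 0.08 and -0.02.

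Microglia and macrophage markers were highest in Emcn+/+ replicate 3, at 2187 normalised reads in sum, while Emcn+/+ replicates 1 and 2 had 1643 and 1452 and Emcn-/- libraries 1576 to 1734. Of these 10 markers 7 were negative and 0 passed. Red cell genes were high in both libraries of the 180s, 2276 and 2352 against 592 to 953. Of the 4 astrocyte markers, Gfap, which reactive Müller glia also express, was high in the same libraries, 3372 and 2803 against 999 to 1347. Pdgfra (378 to 568), Pax2 (17.6 to 34.1) and S100b (182 to 276) did not set those libraries apart. Of other leukocyte markers, Ptprc, which microglia also express, had 15.6 to 40.4 normalised reads and was highest in Emcn+/+ replicate 3. Cd79a had at most 5.19, and S100a8, S100a9 and Ngp at most 3.11. Retinal progenitor genes summed to 416 to 527 in Emcn+/+ and 509 to 543 in Emcn-/-, most of it Hes1, which glia also express. Fgf15, a progenitor gene, had at most 5.19. The 6 tip cell markers, genes of sprouting endothelium, had a median log2 fold change of 0.54, with 4 positive and 2 negative, and 0 passed. Dll4 (55.0 to 124 against 53.9 to 99.8 normalised reads) and Pdgfb (172 to 214 against 155 to 214) overlapped between Emcn+/+ and Emcn-/-. Tip cell sums were 986 to 1658 in Emcn+/+ and 1691 to 1901 in Emcn-/-. Apln alone gave 523 to 787 and 898 to 1183 of these. Without Emcn+/+ replicate 3 the median was 0.85 and 4 of 6 passed, Apln (limma adjusted p = 0.0180) and Esm1 (0.0242) among them. In that fit 0.905% of all tested genes were called. The library left out had the highest tip cell sum of the Emcn+/+ libraries. Its Adm level was 181 normalised reads, against 109 to 121 in Emcn-/- libraries. Between the 2 libraries of the 180s the median log2 difference was -0.01. The highest tip cell sum, 1901, was in Emcn-/- replicate 2. Retinal pigment epithelium markers, from a tissue next to the retina, were positive for 9 of 9 tested and 0 passed, with sums of 3764 to 7856 against 8875 to 12371.

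**Figure D5:**
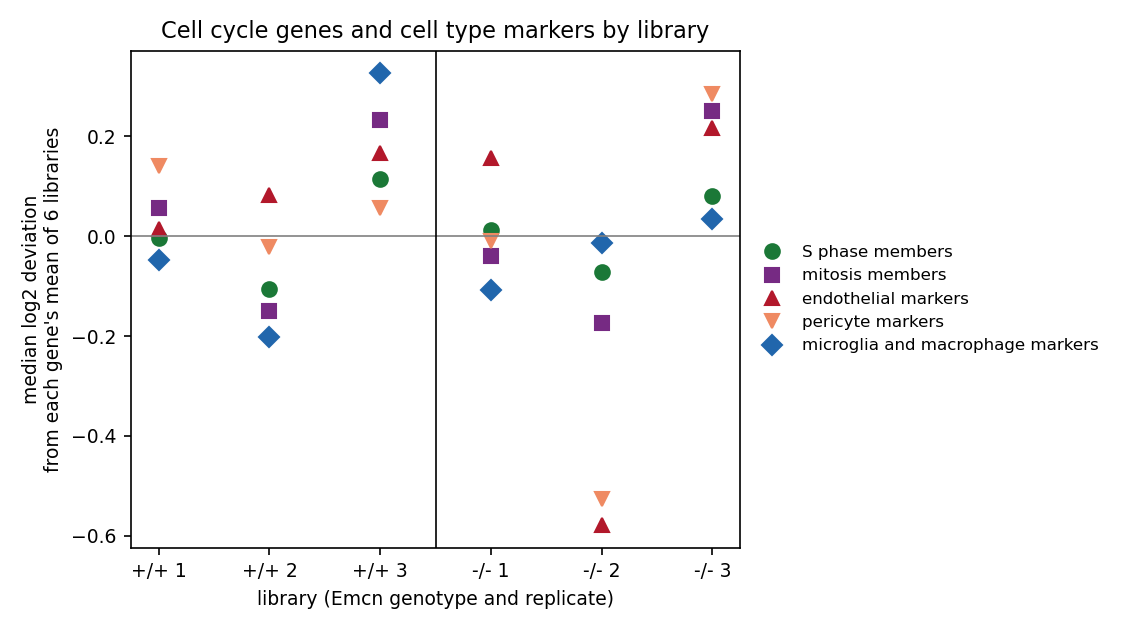
For each library, marks give the median log2 deviation of a gene list from each gene's mean of the 6 libraries. S phase and mitosis genes are highest in replicate 3 of both genotypes. In Emcn-/- replicate 2 the mitosis genes lie at -0.17 with endothelial markers at -0.58 and pericyte markers at -0.53. In Emcn+/+ replicate 2 the mitosis genes lie at -0.15 with endothelial markers at 0.08 and pericyte markers at -0.02.

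In a wider set of cell cycle genes, none of them members, no gene passed either. Of 30 further S phase genes, 26 were tested and 0 passed, with 17 positive, 9 negative and a median log2 fold change of 0.08. The smallest p were those of Usp1, a deubiquitinase of DNA repair (0.21 ± 0.08 SE, limma adjusted p = 0.552), and Tipin of the replication fork (0.21 ± 0.10, 0.643). Of 36 further G2 and mitosis genes, 35 were tested and 0 passed, with 24 positive, 11 negative and a median of 0.04. There the nuclear lamina gene Tmpo (0.11 ± 0.06, 0.651) and the heterochromatin gene Cbx5 (-0.10 ± 0.05, 0.674) came first. This list summed to 27161 to 30300 normalised reads per library, against 1191 to 1499.9 for the 25 mitosis members. It thus holds far more abundant genes, and how much of their RNA came from dividing cells was not tested. Of 30 G1 cyclins, inhibitors and pocket proteins, 29 were tested and 0 passed, with 19 positive, 10 negative and a median of 0.04. Rbl1, a pocket protein that restrains E2F factors, was lower in each Emcn-/- library, with 90.2, 84.3 and 108 normalised reads in Emcn+/+ against 73.0, 62.2 and 72.1 (-0.44 ± 0.17 SE, limma adjusted p = 0.561). E2f2 had 0.51 ± 0.31 (0.694).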

How the data were processed

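Poly-A RNA-seq of 6 retina samples was used. The authors deposited 1 table of read signal per gene. The build, per the submitters' processing notes, was GRCm38. The aligner, counter, annotation, strand setting and scaling were not given in the sources used here. Dividing a library's values by the worth of 1 read gave whole reads for 100% of them, to within 0.001, and the inverse steps equalled DESeq2 median-ratio size factors. A count test was not the main result because the deposited signal is scaled.

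The test was limma 3.58.1, run in R 4.3.3 on log2(value + 1) with its trend option and genotype as the only term, over 16681 genes kept by edgeR's expression filter (minimum count 10), with Benjamini-Hochberg adjustment over all of them. This scale understates changes of low genes. edgeR 4.0.16 and DESeq2 1.42.0 on the recovered reads were alternatives, as were TMM and upper-quartile scaling, other filters, pseudocount 0.5, a term for title number series and leaving out each library. Replicate numbers follow sample order and pair nothing. No pair of libraries was a duplicate, since 23.7% or more of genes differed beyond sampling noise in each. Exonic lengths and positions came from GENCODE M21 (GRCm38), and promoter windows from RefSeq (GRCm38.p6). Scripts were tested on simulated data. The members and gene lists were chosen with earlier results of these data known. All members are named. Values by library are given for those with an unadjusted p under 0.05 or no overlap of the genotypes and for the one with the most reads of each role. Of other lists of cell cycle genes, the 2 with the smallest p are named.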

Additional observations from a re-analysis of the deposited data

How the results depend on the processing

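No paired analysis was possible because the labels carry no replicate numbers that tie single samples across genotypes. A term for the title number series, which groups samples of both genotypes, was fitted and gave 0 members past the threshold. No member passed under any of the 14 alternatives, each member compared where it was tested (23 of 43 members at minimum count 50, and just 2 with an adjusted p from DESeq2). Over all genes the count of 1 became 82 with DESeq2, and ranged from 0 to 151 when 1 library was left out, 151 being without Emcn+/+ replicate 3. The median log2 fold changes stayed within the spread between libraries. With 1 library left out they ranged from -0.07 to 0.09 for S phase genes and from -0.19 to 0.12 for mitosis genes. At minimum count 50 the mitosis median was 0.03, over 10 genes. The unadjusted p of Tk1 was not under 0.05 without Emcn+/+ replicate 1 or 2, without Emcn-/- replicate 1, with DESeq2, or at minimum count 50, where it was not tested. Rrm2 turned from -0.17 to 0.056 with edgeR and 0.054 with DESeq2. The sign of 21 members changed when some library was left out, none of them past the threshold. Their log2 ranges were -0.10 to 0.20 for Mcm3, -0.072 to 0.24 for Mcm5, -0.24 to 0.017 for Mcm6, -0.061 to 0.034 for Cdc45, -0.22 to 0.17 for Gins2, -0.73 to 0.13 for Rrm2, -0.017 to 0.29 for Tyms and -0.062 to 0.22 for Ccne1. Among mitosis genes they were -0.050 to 0.81 for Ccnb1, -0.37 to 0.18 for Ccnb2, -0.093 to 0.12 for Aurka, -0.20 to 0.74 for Bub1, -0.50 to 0.080 for Cdca8, -0.30 to 0.77 for Ube2c and -0.079 to 0.24 for Kif11. The rest were -0.39 to 0.16 for Kif23, -0.058 to 0.26 for Nusap1, -0.081 to 0.35 for Tpx2, -0.13 to 0.070 for Cenpe, -0.28 to 0.14 for Foxm1 and -0.55 to 0.059 for Mybl2. The cause of these changes was not tested.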
